A study of Homo sapiens with 29 samples.

Results

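Genes for cytoskeletal motors and for the actin and microtubule regulators that work beside them were followed in DRB/TTchem-seq of HEK293 cells. They were chosen by name, through symbols of the kinesin, dynein, myosin, Ena/VASP, formin, WAVE, actinin, filamin and plus-end families. Symbols of the spectrin, protein 4.1 and ankyrin families and of 3 families of microtubule-associated proteins were also taken. No measured value is part of this rule, but it was set with earlier results of these data known. The rule found 85 of the 4592 listed genes, of which 44 code for motors (21 myosins, 14 kinesins and 9 dyneins) and 41 for regulators or the membrane skeleton. The name rule matches 180 coding genes in GENCODE release 44. Of those not listed, 67 are narrower than 60 kb, 26 are wider than 300 kb and 2 lie between these widths. No kinesin light chain and no dynactin gene was among the 85. The name rule also took in ABI3BP, which codes for a protein of the extracellular matrix and not for a WAVE subunit.

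HEK293 is a human embryonic kidney cell line. Cells of every library had been transduced with lentivirus for 4 days, carrying either a control hairpin (shCtrl) or a hairpin against THOC5 (shTHOC5), a subunit of the THO complex, and a hairpin lowers its target without removing the gene. All cells then spent 3.5 h in 100 μM DRB, an inhibitor of CDK9 that holds RNA polymerase II near the start of genes. After the wash, new RNA was marked with 1 mM 4SU, and the wave peak, the position along the gene where the authors' caller placed the peak of the marked RNA, was located 10, 20, 30 or 40 min after the release. Each of the 8 combinations of hairpin and time has 1 library, so no difference below has a replicate check and no p-value is given. The listed genes do not include THOC5, so its depletion was not checked here.

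Kinesins and dyneins are motors that walk along microtubules, and myosins are motors that pull on actin filaments. The actin network that myosins act on is built by elongation factors such as ENAH and the formins, branched through the WAVE complex, bundled by actinins and filamins, and tied to the membrane by spectrins, ankyrins and the protein 4.1 family. Many of these genes are long, with a wide first intron, so polymerase needs a long time to cross them after a release.

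The promoters of 5 genes on which the results turn are shown, because in 3 of them the wave peaks followed an annotated start inside the listed gene. Each run is the 250 bases before the RefSeq start (GRCh38.p14), in the direction of transcription, with GC boxes (GGGCGG on either strand), CCAAT boxes (CCAAT) and TATA boxes (TATAAA) in capitals. ENAH (chr1:225653124-225653373, minus strand) and SPTAN1 (chr9:128552337-128552586, plus strand) start at the first base of the listed gene to within 30 bases. KIF11 (chr10:92592880-92593129, plus strand), ACTN2 (chr1:236686249-236686498, plus strand) and MAPRE2 (chr18:35041163-35041412, plus strand) start 19.0, 22.4 and 64.5 kb inside it.
ENAH: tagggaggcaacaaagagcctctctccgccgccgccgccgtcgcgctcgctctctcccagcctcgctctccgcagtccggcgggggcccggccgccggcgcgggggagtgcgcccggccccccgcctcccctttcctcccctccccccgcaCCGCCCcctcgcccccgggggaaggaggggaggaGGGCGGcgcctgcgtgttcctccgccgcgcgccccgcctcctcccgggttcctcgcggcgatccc
SPTAN1: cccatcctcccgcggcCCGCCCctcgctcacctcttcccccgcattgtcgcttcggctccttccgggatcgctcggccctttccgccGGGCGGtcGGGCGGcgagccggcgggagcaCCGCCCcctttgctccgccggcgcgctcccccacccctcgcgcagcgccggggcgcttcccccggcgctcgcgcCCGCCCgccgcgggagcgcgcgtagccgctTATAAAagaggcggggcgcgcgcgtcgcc
KIF11: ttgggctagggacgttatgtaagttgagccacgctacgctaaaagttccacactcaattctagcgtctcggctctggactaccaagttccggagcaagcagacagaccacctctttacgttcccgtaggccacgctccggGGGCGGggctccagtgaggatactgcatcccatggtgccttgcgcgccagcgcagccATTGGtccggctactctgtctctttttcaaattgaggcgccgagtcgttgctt
ACTN2: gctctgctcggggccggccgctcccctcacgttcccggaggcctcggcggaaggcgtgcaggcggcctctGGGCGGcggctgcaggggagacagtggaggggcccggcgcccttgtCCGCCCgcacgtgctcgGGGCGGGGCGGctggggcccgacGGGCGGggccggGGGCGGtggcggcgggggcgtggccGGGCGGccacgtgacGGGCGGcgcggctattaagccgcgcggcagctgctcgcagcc
MAPRE2: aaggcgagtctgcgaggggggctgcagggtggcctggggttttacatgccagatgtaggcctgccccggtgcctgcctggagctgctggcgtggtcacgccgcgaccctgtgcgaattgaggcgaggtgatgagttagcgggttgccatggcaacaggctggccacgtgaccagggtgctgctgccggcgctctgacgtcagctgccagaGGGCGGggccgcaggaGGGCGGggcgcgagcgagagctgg

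These runs hold 2 GC boxes in ENAH, 5 in SPTAN1, 1 in KIF11, 8 in ACTN2 and 2 in MAPRE2. SPTAN1 alone of the 5 has the TATA letters, and KIF11 alone has CCAAT, which its run carries on the other strand. RefSeq gave promoters of 71 of the 85 members. A GC box stood in 73.2% of these, against 63.1% of the 3679 listed genes with a promoter and 42.3% of all 27305 promoters. CCAAT stood in 32.4%, 31.4% and 33.0% of the same sets, and TATAAA in 9.86%, 6.28% and 11.1%. Their median GC content was 70%, against 64.8% in the listed genes and 58% in all promoters, so the members' promoters were also the richest in GC of the 3 sets. A match of letters is a description of the sequence and not a binding site.

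Before any comparison, the members' peaks in the control libraries of 10 and 30 min stood apart. The median wave peak of the 85 members in shCtrl lay 58.4, 8.25, 29.7 and 17.8 kb from the listed start (TSS), in the order of the release times. These control medians thus did not follow time. Over all listed genes the shCtrl medians were 14.7, 7.67, 17.3 and 17.5 kb, so there the 30 min value lay between those of 20 and 40 min. In shTHOC5 the medians of the 85 members followed time, at 2.99, 4.58, 7.14 and 12.0 kb. From 20 to 30 min, 44 members of 85 stepped downstream in shCtrl, or 51.8%, and 54 in shTHOC5, or 63.5%, against 53.7% and 60.6% of all listed genes. From 30 to 40 min it was 41 members, or 48.2%, and 59, or 69.4%, against 48.5% and 61.0% of all. Counts of genes in order and ratios of rates are therefore also given without the 10 min or the 30 min libraries. Differences of position are given time by time.

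**Figure D1:**
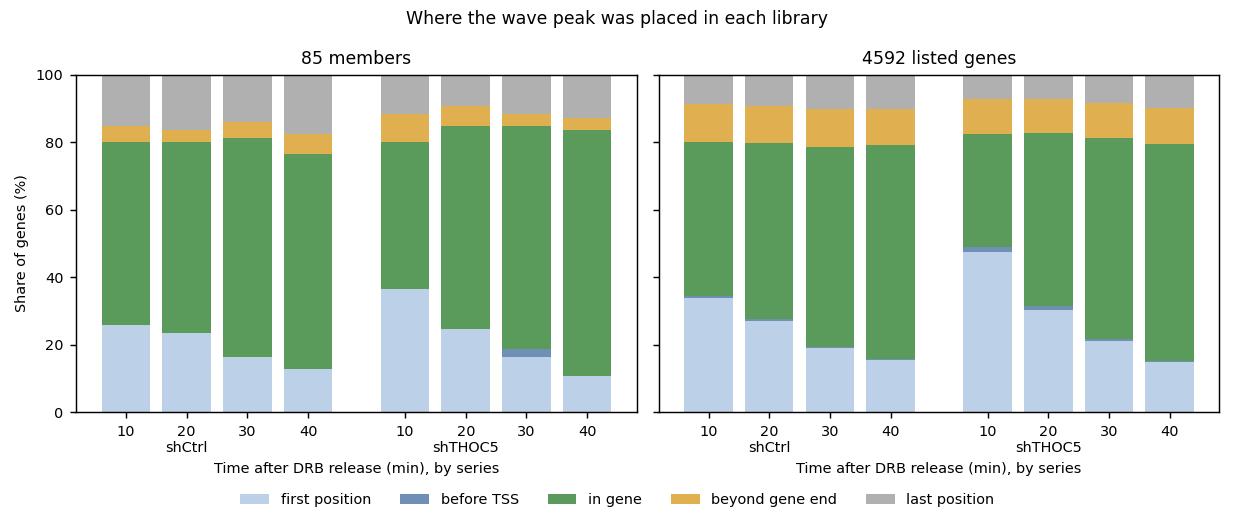
Share of genes (y axis, percent) by the place of the wave peak in each library (x axis, min after release, shCtrl left and shTHOC5 right of each panel), for the 85 members and for all 4592 listed genes. The first and last positions are the ends of the window from 2 kb before to 120 kb after the TSS. At 40 min the wave peak lay inside the gene for 63.5% of members in shCtrl and 72.9% in shTHOC5, against 63.2% and 64.3% of all genes.

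The window ends held many of the calls. The first position of the window took 22, 20, 14 and 11 members in shCtrl at the 4 times and 31, 21, 14 and 9 in shTHOC5. This position lay inside another coding gene for 9, 8, 8 and 7 of these members in shCtrl, or 40.9%, 40%, 57.1% and 63.6%. It did so for 32.7%, 37.2%, 45.3% and 52.0% of the listed genes with a model called there. In shTHOC5 it did so for 9, 9, 7 and 6 members, or 29.0%, 42.9%, 50% and 66.7%, against 27.7%, 35.7%, 43.7% and 54.0%. A call there thus need not be a wave that is still at the gene's start. The last position took 13, 14, 12 and 15 members in shCtrl and 10, 8, 10 and 11 in shTHOC5. The stacked bars show that a smaller share of members than of listed genes was called at the first position in each library and a larger share at the last. In GENCODE models, nearly all wave peaks inside a member lay in introns, with between 0 and 4 members in an exon per library.

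A gene was counted as in order where its wave peak moved downstream at every step. In shCtrl this held for 8 members, or 9.41%, against 13.2% of all listed genes, and in shTHOC5 for 32 members, or 37.6%, against 31.3%. It held in both series for 7 members, or 8.24%, against 9.23% of all, namely the kinesin genes KIF1B, KIF11 and KIF21A, the WAVE subunit ABI1, the plus-end protein CLIP1, the crosslinker ACTN2 and the spectrin SPTAN1. MAP7, which recruits kinesin to microtubules, was in order in shCtrl alone, and 25 members were in order in shTHOC5 alone. Without the 10 min libraries, 22 members, or 25.9%, were in order in shCtrl and 45, or 52.9%, in shTHOC5, against 26.3% and 45.7% of all listed genes. Without the 30 min libraries the numbers were 21, or 24.7%, and 35, or 41.2%, against 26.4% and 39.2% of all. In both series 18 members, or 21.2%, were in order without 10 min and 15, or 17.6%, without 30 min, against 18.7% and 18.8% of all. The mark of the authors' own filter kept 4 members in shCtrl, or 4.71%, against 4.92% of all, and 18 in shTHOC5, or 21.2%, against 10% of all.

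**Figure D2:**
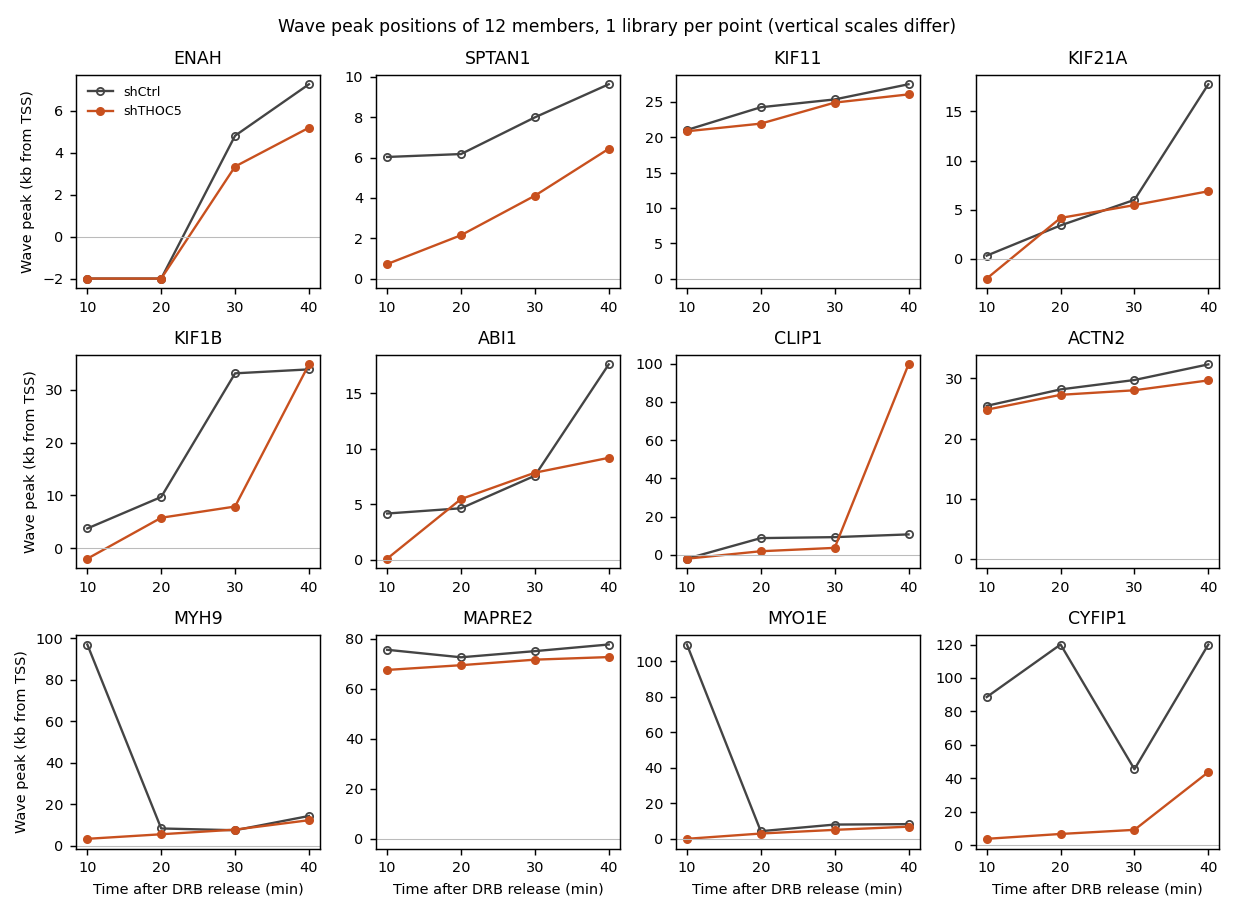
Wave peak (y axis, kb from the TSS, scales differ) against min after DRB release (x axis) for 12 members in shCtrl (open grey) and shTHOC5 (filled orange), 1 library per point. SPTAN1 lay nearer the TSS in shTHOC5 at all 4 times, while MYH9 and MYO1E differed by over 90 kb at 10 min and by under 4 kb at 40 min.

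Over all 85 members the wave peak lay nearer the TSS in shTHOC5 more often than farther from it. A difference of 1 kb or more towards the TSS was found for 41 members at 10 min, or 48.2%, against 41.1% of all listed genes. At 20, 30 and 40 min it was found for 40, 45 and 40 members, or 47.1%, 52.9% and 47.1%, against 41.0%, 46.6% and 40.8% of all. A difference of 1 kb or more away from the TSS was found for 10, 10, 14 and 20 members, against 16.9%, 20.0%, 21.6% and 28.4% of all listed genes, which is 11.8%, 11.8%, 16.5% and 23.5% of the members. The median difference of the members was -0.642, -0.314, -1.47 and -0.037 kb at the 4 times, and that of all listed genes 0, 0, -0.569 and 0 kb. The position was equal in both series for 27, 24, 14 and 15 members, and 13, 15, 21 and 27 lay farther in shTHOC5. Of the 4592 listed genes, 1530, 1156, 842 and 709 were equal and 953, 1196, 1259 and 1628 lay farther. Without members at the first position in either series, the median difference was -2.64, -1.98, -3.27 and -1.34 kb. This left 52, 62, 68 and 74 members and took out those at the first position in both series, whose difference is 0. The same median over all listed genes was not computed, so these values do not set the members apart.

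For the 23 members with all 8 wave peaks inside the gene, a set chosen after the positions had been seen, the median difference was -7.73, -1.90, -1.71 and -1.58 kb, in the order of the release times. For the 768 listed genes with all peaks inside, it was -1.97, -1.16, -1.63 and -0.707 kb. At 40 min, 16 of the 23 lay nearer the TSS by 1 kb or more, or 69.6%, and 3 lay farther, or 13.0%, against 46.4% and 25.9% of the 768. The median difference was -5.31, -0.901, -3.13 and -1.09 kb in the 41 regulators and 0, -0.152, -0.118 and 0 kb in the 44 motors. Of the 44 motors, 20, 15, 12 and 12 had equal positions in both series, against 7, 9, 2 and 3 of the 41 regulators. Of the 4592 listed genes, 1530, 1156, 842 and 709 did. The wider contrasts fell at 10 and 30 min, and at 20 min the mean difference was -13.3 kb in motors and -11.9 kb in regulators. No replicate bears on this contrast.

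**Figure D3:**
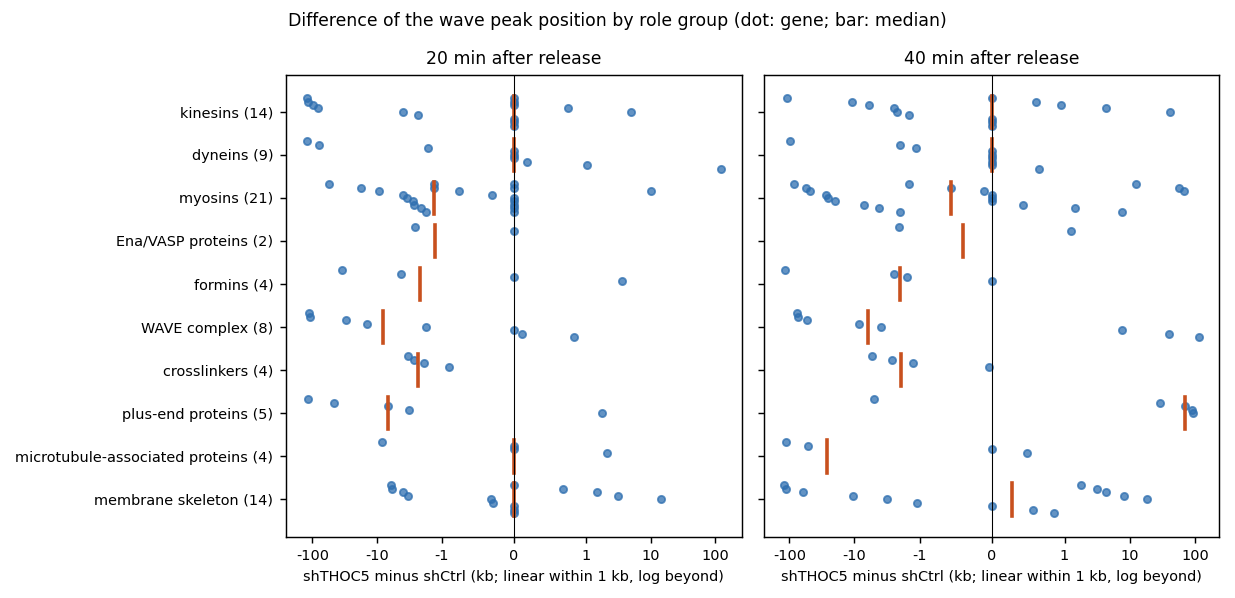
Difference of the wave peak between shTHOC5 and shCtrl (x axis, kb, linear within 1 kb and logarithmic beyond, negative is nearer the TSS in shTHOC5) for each member, by role group (y axis, number of genes in parentheses), at 20 and 40 min, with the median of each group as a bar. The 8 genes drawn as the WAVE complex include ABI3BP, which is not a WAVE subunit, at -14.2 kb at 20 min and 114 kb at 40 min. Dots at 0 are mostly genes at the same window end in both series. At 20 min the 4 crosslinkers all lie left of 0, as do 2240 of the 4592 listed genes. At 40 min 4 of the 5 plus-end genes lie right of 0, as do 1628 of the 4592. At 10, 20 and 30 min, 4 of these 5 lay nearer the TSS by 1 kb or more in shTHOC5.

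Among the kinesin genes, KIF11 codes for the mitotic motor that pushes spindle poles apart. Its wave peaks lay at 21.0, 24.2, 25.3 and 27.5 kb in shCtrl and at 20.8, 21.9, 24.9 and 26.1 kb in shTHOC5. Both series were in order, and the shTHOC5 peak lay nearer at every time, with differences of -0.182, -2.32, -0.448 and -1.43 kb. KIF1B, a carrier of mitochondria and synaptic vesicle precursors, lay at 3.73, 9.68, 33.1 and 33.9 kb in shCtrl. In shTHOC5 it was at the first position and then at 5.75, 7.88 and 34.8 kb. The long step was thus called 10 min later, and the 40 min peaks were 0.947 kb apart. The peaks at 33.1, 33.9 and 34.8 kb lay 11.3, 12.1 and 13.0 kb past a coding start annotated at 21.8 kb. Whether that start was used was not tested. KIF21A, which stops microtubule growth, lay at 0.333, 3.40, 6.00 and 17.8 kb in shCtrl and at the first position, 4.16, 5.47 and 6.88 kb in shTHOC5. KIF18A, which shortens chromosome-bound microtubules, was at the first position until 20 min in both series and then at 2.14 and 5.99 kb in shCtrl against 3.37 and 3.76 kb in shTHOC5. In all, 6 of 14 kinesin genes, or 42.9%, were nearer by 1 kb or more at 40 min, close to the 40.8% of all listed genes, and 2 were farther, or 14.3% against 28.4%.

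Of the 21 myosin genes, none was in order in shCtrl and 7, or 33.3%, were in shTHOC5, against 13.2% and 31.3% of all listed genes. Without the 10 min libraries 3 were in order in shCtrl and 9 in shTHOC5, or 14.3% and 42.9%, against 26.3% and 45.7% of all. Without the 30 min libraries it was 6 and 7, or 28.6% and 33.3%, against 26.4% and 39.2%. MYH9, the heavy chain of nonmuscle myosin IIA, lay at 97.1, 8.25, 7.40 and 14.3 kb in shCtrl and at 3.25, 5.45, 7.69 and 12.2 kb in shTHOC5. MYO1E, a membrane-bound class I myosin, lay at 109.6, 4.38, 8.11 and 8.35 kb in shCtrl and at 0.079, 3.06, 5.14 and 6.92 kb in shTHOC5. In both genes the 10 min control peak was the odd value. MYO10, which carries cargo to filopodial tips, lay at 4.74, 6.46, 5.61 and 7.02 kb in shCtrl and at 1.93, 4.68, 5.84 and 7.45 kb in shTHOC5, so that its 30 and 40 min peaks were farther in shTHOC5. MYO6, the myosin that walks towards minus ends, was at the first position, 6.68, 6.37 and 30.8 kb in shCtrl and at the first position, 4.00, 6.01 and 11.1 kb in shTHOC5.

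Of the dynein genes, DYNC1I2, an intermediate chain of cytoplasmic dynein, lay at 10.9, 1.57, 5.02 and 10.2 kb in shCtrl and at 2.04, 2.62, 5.04 and 8.26 kb in shTHOC5. It was the only dynein gene that the authors' filter kept, and only in shTHOC5. DYNC1H1, the heavy chain of the same motor, was at the last position in all 8 libraries. Most of the axonemal dyneins, which beat cilia, had low coverage or peaks outside the gene.

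ENAH, which extends actin filaments at the leading edge, lies at chr1:225486765-225653142 on the minus strand, with 14 exons and no other coding gene in its window. It was at the first position at 10 and 20 min in both series. At 30 min it lay at 4.81 kb in shCtrl and 3.34 kb in shTHOC5, and at 40 min at 7.27 and 5.19 kb, all in intron 1. The call thus left the first position between 20 and 30 min in both series and lay nearer the TSS in shTHOC5 at both later times. The 61 bases around the 40 min peaks, shown to place the calls in the intron, lie at chr1:225645846-225645906 for shCtrl and at chr1:225647919-225647979 for shTHOC5, on the minus strand with the called base in capitals, and their GC content is 41.0% and 24.6%.
ENAH shCtrl: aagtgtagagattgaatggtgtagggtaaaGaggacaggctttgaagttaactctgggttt
ENAH shTHOC5: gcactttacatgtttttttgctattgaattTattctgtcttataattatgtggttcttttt

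EVL, the other Ena/VASP member listed, was at the last position at 10 and 30 min in shCtrl and at 9.72 and 8.79 kb at 20 and 40 min. In shTHOC5 it lay at 3.70, 7.15, 9.02 and 10.1 kb and was in order. The formin DIAPH1, a nucleator of unbranched filaments, lay at 96.3, 1.40, 96.1 and 10.4 kb in shCtrl and at 2.99, 5.06, 7.14 and 8.81 kb in shTHOC5. Both genes were far out in the 10 and 30 min control libraries and near the TSS in the 20 and 40 min control libraries. The far control peaks of DIAPH1 lay 1.78 and 1.60 kb past a coding start annotated at 94.5 kb. Whether that start was used was not tested. DAAM1, a formin of planar polarity signalling, was at the first position until 20 min, then at 0.650 and 6.13 kb in shCtrl and at -0.417 and 3.67 kb in shTHOC5.

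The WAVE complex switches on the Arp2/3 nucleator below Rac. ABI1 lay at 4.18, 4.65, 7.58 and 17.6 kb in shCtrl and at 0.106, 5.48, 7.86 and 9.20 kb in shTHOC5, so its peak was nearer at 10 and 40 min and farther by under 1 kb at 20 and 30 min. WASF2, the widely expressed WAVE protein, lay at 6.04, 2.31, 7.76 and 11.5 kb in shCtrl and, from the first position, at 2.42, 4.63 and 7.56 kb in shTHOC5. CYFIP2, a Rac-binding subunit, lay at 27.1, 5.36, 103.0 and 83.2 kb in shCtrl and at 0.951, 3.58, 4.59 and 8.66 kb in shTHOC5. Its partner gene CYFIP1 lay at 88.6 and 45.4 kb at 10 and 30 min in shCtrl, with the last position at 20 and 40 min, and at 3.74, 6.65, 9.12 and 43.7 kb in shTHOC5. ABI2 moved the other way, from 10.3 kb in shCtrl to 50.9 kb in shTHOC5 at 40 min, and was in order in neither series.

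The crosslinkers ACTN1 and ACTN4, which bundle actin at adhesions and under the membrane, had 10 min control peaks at 91.9 and 58.4 kb and 10 min shTHOC5 peaks at 1.12 and 2.17 kb. At 20 min they lay at 7.93 and 10.7 kb in shCtrl and at 5.19 and 7.32 kb in shTHOC5, with differences of -2.74 and -3.39 kb. ACTN2, the muscle actinin, lay at 25.4, 28.2, 29.7 and 32.3 kb in shCtrl and at 24.8, 27.3, 28.0 and 29.7 kb in shTHOC5. These 3 actinin genes lay nearer the TSS in shTHOC5 at each of the 4 times. For ACTN2 the differences at 10 and 20 min, -0.642 and -0.901 kb, were under 1 kb. A difference of any size towards the TSS was found for 2109, 2240, 2491 and 2255 of the 4592 listed genes at the 4 times.

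The plus-end genes code for proteins that ride on growing microtubule ends. CLIP1 was at the first position at 10 min in both series, then at 8.76, 9.27 and 10.7 kb in shCtrl and at 1.90, 3.66 and 99.6 kb in shTHOC5. CLASP2 lay at 60.4 and 1.67 kb, the last position and 7.50 kb in shCtrl, and at the first position, 3.47, 67.3 and 78.4 kb in shTHOC5. The CLIP1 peak at 99.6 kb lay 5.08 kb past a coding start annotated at 94.5 kb. The CLASP2 peaks at 60.4, 67.3 and 78.4 kb lay 1.15, 8.09 and 5.28 kb past coding starts at 59.3, 59.3 and 73.1 kb. Whether these starts were used was not tested. These 2 genes with ABI2 had the longest shifts away from the TSS at 40 min among members of at least 100 rpm in both series, by 88.9, 70.9 and 40.6 kb. The longest shifts towards it were those of MAP1B, which stabilises axonal microtubules, by -110.7 kb, and of CYFIP1 and CYFIP2, by -76.3 and -74.6 kb.

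In the membrane skeleton, SPTAN1, the alpha spectrin of nonerythroid cells, lay at 6.03, 6.18, 8.00 and 9.64 kb in shCtrl and at 0.719, 2.15, 4.11 and 6.44 kb in shTHOC5. Its peak was nearer at every time, with differences of -5.31, -4.03, -3.89 and -3.20 kb. EPB41L2, a protein 4.1 that links spectrin to actin, lay at 8.12, 5.48, 8.80 and 9.66 kb in shCtrl and at 3.80, 5.17, 6.95 and 8.57 kb in shTHOC5. The microtubule-associated MAP4 lay at 101.8 kb, the first position, 7.72 and 6.27 kb in shCtrl, and at the first position at 10 and 20 min, -0.158 kb and 6.76 kb in shTHOC5. MAP1B was at the last position in 3 control libraries and at 0.486, 3.84, 5.60 and 9.32 kb in shTHOC5.

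Some members had a far control peak and a near shTHOC5 peak at the same time. At 10 min, 16 members lay over 40 kb from the TSS in shCtrl and under 10 kb in shTHOC5, or 18.8%, against 12.2% of all listed genes, and 1 member showed the reverse, against 3.4% of all. At 30 min the numbers were 15 members, or 17.6%, against 11.5% of all, and 2 for the reverse, against 2.64%. Of the 16 at 10 min, 13 lay under 20 kb in the 20 min control library, or 81.3%, against 64.1% of the 560 listed genes with such a difference. The cut-offs of 40 and 10 kb were chosen after the positions had been seen. Whether the 10 and 30 min control libraries account for the pattern was not tested.

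The wave peaks of several members began far inside the listed gene. KIF11 is listed from chr10:92574105-92655395, but its RefSeq and GENCODE canonical start lies 19.0 kb downstream of the listed TSS. Counted from that start, its peaks lay at 2.00, 5.21, 6.32 and 8.47 kb in shCtrl and at 1.82, 2.90, 5.87 and 7.03 kb in shTHOC5. ACTN2, counted from its start at 22.4 kb, lay at 3.09, 5.82, 7.39 and 9.99 kb in shCtrl and at 2.44, 4.92, 5.68 and 7.32 kb in shTHOC5. From these inner starts the 40 min peaks of both genes lay within 10 kb, as those of ENAH and SPTAN1 did from the listed start. MAPRE2, an end-binding protein, lay at 11.1, 8.10, 10.6 and 13.2 kb from its inner start in shCtrl and at 3.04, 4.94, 7.16 and 8.19 kb in shTHOC5.

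EPB41, the founding protein 4.1, has its GENCODE canonical start 27.5 kb inside the gene, while RefSeq places the start at the listed TSS. From the inner start its peaks lay at 4.45, 7.17, 5.77 and 7.89 kb in shCtrl and at 2.00, 3.89, 4.69 and 8.74 kb in shTHOC5. SPTBN1, a beta spectrin, has a coding transcript that starts 102.1 kb downstream of the TSS. Its peaks lay 3.83 and 11.0 kb past that start in shCtrl before they reached the last position, and 2.83, 5.10 and 12.3 kb past it in shTHOC5. In all, 14 of 83 members with a matching GENCODE model, or 16.9%, had a canonical start 2 kb or more downstream of the listed TSS, against 22.5% of 4416 listed genes. Inner canonical starts were thus no more frequent among the members. Inner starts of other coding transcripts, as in SPTBN1, were not counted.

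**Figure D4:**
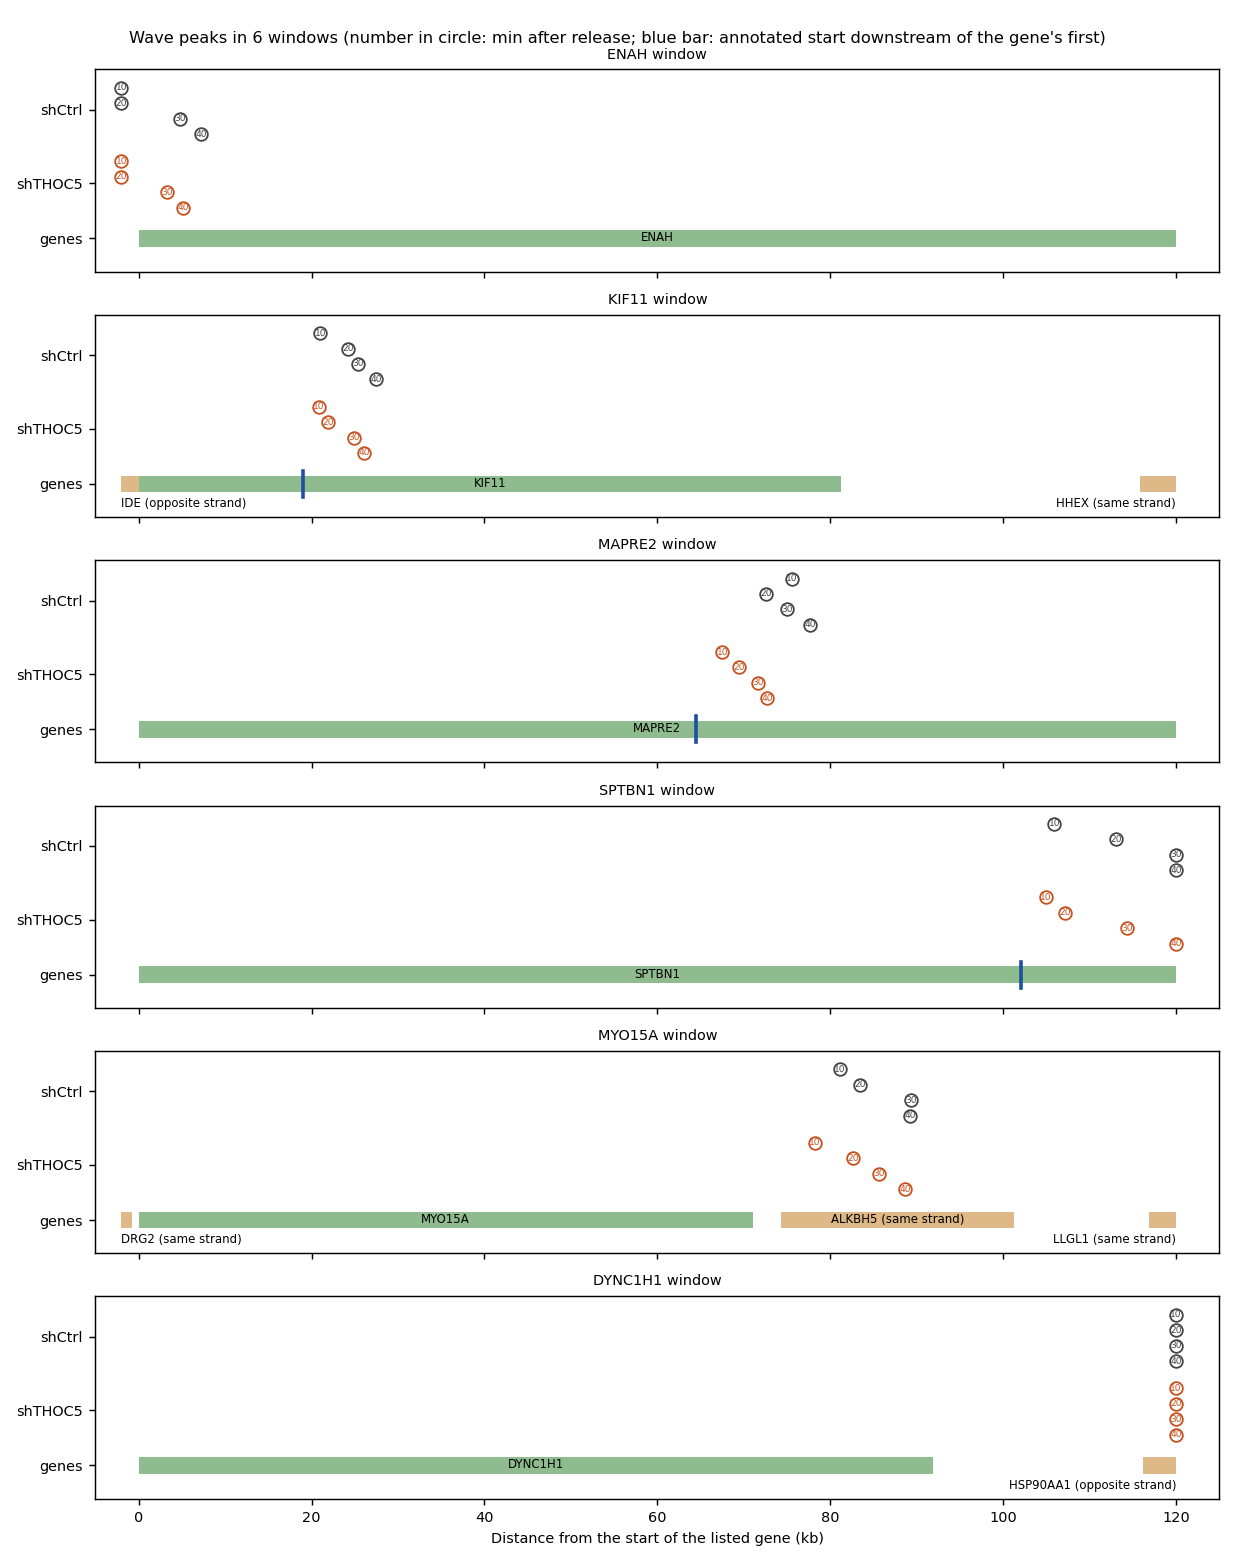
Wave peaks of 6 members by distance from the listed start (x axis, kb), with 1 circle for each library holding the min after release (grey shCtrl, orange shTHOC5) and the coding genes of the window below (green the member, tan its neighbours). A blue bar marks the inner start at 19.0 kb in KIF11, 64.5 kb in MAPRE2 and 102.1 kb in SPTBN1, upstream of the 10 min peaks. All 8 peaks of MYO15A lie in ALKBH5, and all 8 of DYNC1H1 lie at the end of the window, in HSP90AA1.

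Other members had their peaks in a neighbouring coding gene. MYO15A codes for a myosin of inner ear hair cells, and its gene ends 71.0 kb into the window. Its peaks lay at 81.1, 83.4, 89.3 and 89.2 kb in shCtrl and at 78.2, 82.7, 85.6 and 88.7 kb in shTHOC5, all inside ALKBH5, an RNA demethylase gene on the same strand from 74.3 to 101.2 kb. The authors' filter kept this row in shTHOC5 under the identifier of MYO15A. The 8 peaks of DNAH1 lay in BAP1 on the opposite strand and those of DYNC1H1 in HSP90AA1, also opposite. The window coverage of MYO15A therefore need not be that of the member alone, and with 1 value per window the part of ALKBH5 cannot be told apart. For DNAH1 and DYNC1H1 the neighbours lie on the opposite strand. Whether the coverage counts that strand is not given. Of the 85 members, 36 had another coding gene in the window. At 40 min 16 of 83 members with a model, or 19.3%, had their shTHOC5 peak in another coding gene, against 22.5% of 4416 listed genes.

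Rates in kb/min are the slope of the wave peak on time. In the deposited tables they equal the least-squares line through the 4 peaks and the first end of the window at 0 min. Among the 7 members in order in both series the rate was lower in shTHOC5 for 6, against 70.3% of the 424 listed genes in order in both. The rate was 0.252 in shCtrl and 0.203 in shTHOC5 for SPTAN1, 0.426 and 0.301 for ABI1, and 0.452 and 0.252 for KIF21A. It was 1.01 and 0.835 for KIF1B, 0.730 and 0.666 for ACTN2, and 0.633 and 0.602 for KIF11. CLIP1 alone was higher in shTHOC5, at 2.09 against 0.367, through its 40 min peak. The median ratio of the 7 was 0.826, against 0.938 over the 424 genes. When the line was drawn through the 4 wave peaks only, leaving out 0 min, the medians were 0.908 and 0.915, and the slope was lower in shTHOC5 for 5 of the 7 and for 59.2% of the 424. SPTAN1 then turned round, with slopes of 0.126 in shCtrl and 0.191 in shTHOC5, a ratio of 1.51. With the point at 0 min, the median ratio of the 7 was 0.811 without the 10 min libraries and 0.911 without the 30 min libraries, against 0.921 and 0.934 over the 424. KIF1B alone changed direction there, to a ratio of 1.07 without 30 min. Without the 40 min libraries the ratio became 0.468 for CLIP1 and was over 1 for ABI1 and KIF21A, at 1.20 and 1.06, so for these 3 genes the direction rests on the 40 min libraries. With those libraries left out it was 0.656 for SPTAN1, 0.336 for KIF1B, 0.945 for ACTN2 and 0.959 for KIF11.

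The rate of a gene with an inner start includes the distance to that start. MAPRE2 had a rate of 1.53 in shTHOC5 with the point at 0, and 0.176 over the 4 release times alone. The same slopes were 0.602 and 0.186 for KIF11, 0.791 and 0.210 for EPB41, 1.89 and 0.342 for MYO15A, and 2.53 and 0.524 for SPTBN1, whose last peak is the window end. CYFIP1 was the exception among the 6 kept members with a rate of 0.5 or more, at 0.967 and 1.22. Its 40 min shTHOC5 peak lay 9.90 kb past a coding start annotated at 33.8 kb, and whether that start was used was not tested. In shCtrl the slope over the release times was 0.088 for MAPRE2, 0.205 for KIF11, 0.089 for EPB41, 0.303 for MYO15A, 0.492 for SPTBN1 and 0.197 for CYFIP1, so it was higher in shTHOC5 for 5 of the 6 and lower for KIF11. None of these 5 was in order in shCtrl. All 6 were chosen by filter mark and rate in shTHOC5, which favours advancing peaks there, so these slopes cannot compare the series. Of the 18 members kept in shTHOC5, 12 had a rate under 0.5, or 66.7%, against 49.7% of the 461 kept genes, and the median over the 4 times alone was 0.218, against 0.217 for the 461. In 5 of these 6 members the slope over the release times alone was thus lower than the rate.

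ENAH, CLASP2 and EPB41L2 are in the study's list of genes with THOC5-dependent cleavage and MAP4 is in its independent list. In the study's list of genes with a rate, ABI1 and KIF1B are of the dependent class of cleavage and KIF11 is of the independent class. Cleavage was measured in Nanopore libraries, which were not analysed here.

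Coverage counts marked RNA over the whole window as RPM, scaled so that the listed genes sum to 1000000, with 1 value per series. How the libraries of a series were combined into that value is not given. All windows are equally long, so levels can be set side by side. In a bulk library, fewer cells and less RNA per cell cannot be told apart. The 85 members ranged from 5.75 to 1591 rpm in shCtrl, with a median of 122 rpm, and from 6.65 to 1066 rpm in shTHOC5, with a median of 159 rpm. The highest member in shCtrl was MYH9.

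**Figure D5:**
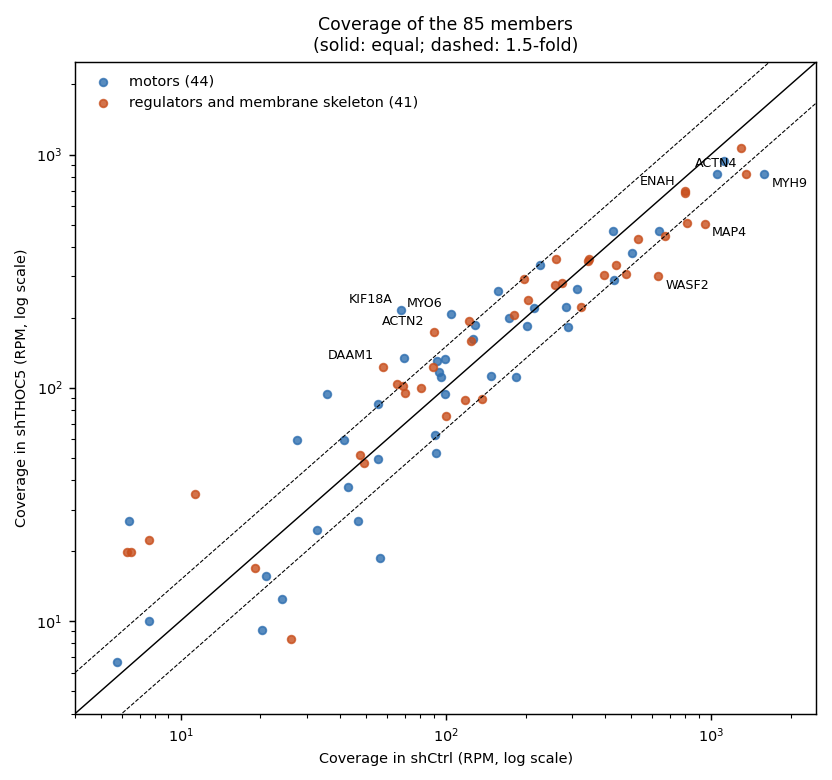
Coverage of the 85 members in shCtrl (x axis) and shTHOC5 (y axis), in RPM on log scales, motors in blue and regulators in orange, 1 dot per gene. The solid line marks equal coverage and the dashed lines 1.5-fold. MYH9, MAP4, WASF2 and ACTN4 lie below the lower dashed line, and KIF18A, DAAM1 and MYO6 above the upper one.

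The members as a group hardly differed in coverage, with a median log2 ratio (shTHOC5 over shCtrl, 1 rpm added) of 0.028 against 0.12 over all listed genes. Coverage was 1.5-fold or more higher in shTHOC5 for 16 members, or 18.8%, against 27.1% of all listed genes, and 1.5-fold or more lower for 15, or 17.6%, against 14.5%. The members were also split by their shCtrl coverage, which is the divisor of the ratio, so that error in it would tend to place higher ratios in the low range and lower ratios in the high range. Of the 39 members under 100 rpm in shCtrl, 13 were higher by 1.5-fold, or 33.3%, and 6 lower, or 15.4%, against 42.9% and 16.4% of the 2173 listed genes in that range. Their median log2 ratio was 0.36, against 0.43. Of the 12 members of 600 rpm or more in shCtrl, none was higher and 5 were lower, or 41.7%, against 2.33% and 27.7% of 300 listed genes. Their median was -0.51, against -0.35.

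Of these 5, MYH9, WASF2, ACTN4 and SPTAN1 act on the actin cortex and MAP4 on microtubules. Coverage was 1591 rpm in shCtrl and 826 rpm in shTHOC5 for MYH9, 949 and 504 rpm for MAP4, and 634 and 301 rpm for WASF2, log2 ratios of -0.95, -0.91 and -1.07. It was 1356 and 825 rpm for ACTN4 and 811 and 509 rpm for SPTAN1, log2 ratios of -0.72 and -0.67. ENAH had 797 rpm in shCtrl and 687 rpm in shTHOC5, a log2 ratio of -0.21, which was under 1.5-fold. The largest differences upwards among members of at least 100 rpm in 1 series were those of KIF18A, from 68.0 to 215 rpm, DAAM1, from 58.0 to 123 rpm, and MYO6, from 105 to 207 rpm, with log2 ratios of 1.65, 1.07 and 0.97.

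By role, the kinesins had a median log2 ratio of 0.46, with 4 of 14 genes higher by 1.5-fold, or 28.6%, near the 27.1% of all listed genes, and none lower, against 14.5%. The myosins had -0.36, with 3 of 21 higher, or 14.3%, and 5 lower, or 23.8%, and the 4 crosslinkers -0.47, with 1 higher (ACTN2, from 89.9 to 174 rpm) and 1 lower. The membrane skeleton had 0.072, with 5 of 14 higher, or 35.7%, and 2 lower, or 14.3%. Among the kinesins that divide cells, KIF11 was at 426 and 471 rpm, KIF4A at 129 and 186 rpm, KIF20B at 157 and 260 rpm and KIF14 at 148 and 113 rpm, so they did not share a direction. Counted relative to the median of all genes, the members' median became -0.097, so its sign depends on the scaling.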

How the data were processed

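DRB/TTchem-seq libraries of HEK293 cells were made from 4SU-marked RNA and sequenced in paired-end mode; reads per library are not given, so depth and the precision it gives are unknown. For each series the authors deposited 1 table of 4592 genes of 60 to 300 kb, aligned to GRCh38 per the labels; the aligner of these libraries is not given in the sources used here, and neither is the strand. The deposited coverage is RPM: its column is named RPKM, but it sums to 1000000 in each table. Wave peaks (bp) and rates (kb/min) were used as deposited by the authors, and so was their filter mark, as positions and slopes in no standard unit.

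Symbols, gene models and starts came from GENCODE release 44 (4590 of 4592 identifiers had a symbol, and 83 of 85 members had the listed width), and promoters from RefSeq (GRCh38.p14). Distances were counted from the listed TSS, 2 kb after the window start. Calls were a difference of 1 kb, a coverage fold of 1.5 with 1 rpm added, and strict order of the 4 peaks. Each condition and time has 1 library, so all comparisons are descriptions beside the same value over all 4592 genes. Members and lists were chosen with earlier results of these data known. Genes named were ENAH, members kept by the filter mark or in order in both series, the highest coverage of each role group, the 3 largest coverage rises and falls, the 3 largest 40 min shifts each way, and members of the study's lists. MAP7, KIF4A, KIF14, KIF20B and DNAH1 were named after their values were seen. Alternatives changed the averages, thresholds, members and release times. The slope functions were tested on simulated data. Values of some members are not reported here. No columns were left unmapped. Python 3.11.15, numpy 2.4.6, pandas 2.3.3 and matplotlib 3.10.9 were used.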

Additional observations from a re-analysis of the deposited data

How the results depend on the processing

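Of 74 values recomputed under alternatives, 51 were counted as the same as the main value, 19 as moved and 4 as reversed. A value counted as the same need not have kept its direction. The median differences of the motor genes at 10 and 40 min were 0 kb, against -0.642 and -0.037 kb in all members, and were counted so. The rate ratios of the 7 genes in order in both series ranged from 0.558 to 5.69, so for their median this count says little. The mean difference of the wave peak was -16.8, -12.7, -16.7 and -7.63 kb at the 4 times. At 10 min the median was -5.31 kb in regulators and -7.73 kb in genes with all peaks inside (chosen after seeing the data), and at 40 min -2.67 kb in the 7 genes in order in both series. With 100 rpm in both series, which 43 of the 85 members reached, 24, 19, 23 and 21 lay nearer the TSS by 1 kb or more. Members in order were 26 in shCtrl and 56 in shTHOC5 where a step of 0 kb was allowed, and in shCtrl 22, 21, 21 and 16 without 10, 20, 30 or 40 min, fewer steps being required. The ratio of mean rates was 1.28, and 0.816 without CLIP1. The median log2 coverage ratio was -0.084 with 10 rpm and -0.24 with 100 rpm in both series, and -0.097 relative to all genes (chosen after seeing the data). At 2-fold, 9 of the 85 members were higher and 4 lower. Shares over all listed genes were not computed with 100 rpm, with steps of 0 kb or at 2-fold. Those counts therefore describe the members alone. No paired analysis was possible because only 1 library exists for a hairpin at any given time; differences were taken within release times, and release times are not replicates of each other. No replicate could be left out. Depth is unknown and limits are not given.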

Other observations

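Other actin and microtubule genes outside the name rule, a list of 145 symbols, gave 73 listed genes. In order were 17 of the 73 in shCtrl, or 23.3%, and 30 in shTHOC5, or 41.1%, against 13.2% and 31.3% of all listed genes. Without 10 min it was 26 and 44, or 35.6% and 60.3%, against 26.3% and 45.7%, and without 30 min 25 and 33, or 34.2% and 45.2%, against 26.4% and 39.2%. At 10, 20, 30 and 40 min, 30, 37, 51 and 36 lay nearer the TSS by 1 kb or more in shTHOC5, or 41.1%, 50.7%, 69.9% and 49.3%, against 41.1%, 41.0%, 46.6% and 40.8% of all listed genes. Farther lay 12, 8, 6 and 20, or 16.4%, 11.0%, 8.22% and 27.4%, against 16.9%, 20.0%, 21.6% and 28.4%, with median differences of 0, -1.04, -2.44 and -0.905 kb. VCL, which links actin to adhesions, lay at 5.92, 7.67, 9.56 and 18.1 kb in shCtrl and at 5.47, 7.19, 8.15 and 9.57 kb in shTHOC5. FERMT2, an integrin activator, lay at 8.07, 8.20, 10.3 and 12.7 kb in shCtrl and at 3.47, 7.07, 8.68 and 11.8 kb in shTHOC5. TPX2, a spindle assembly factor, lay at 4.94, 6.39, 9.18 and 9.42 kb in shCtrl and was at the first position and then at 3.02, 6.38 and 9.55 kb in shTHOC5. All 3 were in order in both series and were named after their values were seen. The median log2 ratio of coverage over the 73 genes was 0.059, with 16 genes 1.5-fold or more higher, or 21.9%, and 8 lower, or 11.0%, against 27.1% and 14.5% of all, and CAPZB, a capping protein, had 1481 rpm in shCtrl and 843 rpm in shTHOC5.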
